A study of Mus musculus with 14 samples.

Results

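Hmgcs1, Sqle, Insig1, Srebf2, Lss, Fdft1 and Idi1 are 7 genes of cholesterol synthesis and its sterol control. They were taken by gene symbol from 22564 gene entries in the 3 deposited expression tables, and their m6A peaks by the same symbols in 6 peak lists. All 7 were measured in all 8 expression libraries. No gene of LDL uptake is among them, so the LDL receptor and its partners were counted from a separate list.

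Mettl3, the catalytic subunit of the m6A writer that methylates adenosines in mRNA, was deleted in hepatocytes with albumin-Cre, and the question here is how the mRNA level and the m6A peaks of these genes differed between genotypes. All mice were on C57BL/6 and 8 weeks old. The cKO carried albumin-Cre and Mettl3 fl/fl, an allele that loses exons 2 and 3, and the methods list the wild type (WT), a littermate, under albumin-Cre as well. Albumin-Cre acts in hepatocytes, so the other cells of whole liver keep the gene. Male hepatocytes, released by collagenase and collected by low-speed centrifugation, had 1 input and 1 m6A immunoprecipitate (IP) per genotype. Male liver had 2 inputs and 2 IPs per genotype, and female liver had 1 RNA-seq library per genotype without an IP.

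Cholesterol is built from acetyl-CoA through mevalonate, isoprenoids, squalene and lanosterol, and the liver is a main site of its synthesis. When sterols in the endoplasmic reticulum fall, the escort protein SCAP carries the precursor of SREBP2 to the Golgi, where proteases free a transcription factor that switches on nearly every enzyme of the pathway. INSIG1 holds SCAP back when sterols are plentiful, and its own gene is an SREBP target.

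SREBP2 binds sterol regulatory elements, often beside sites for the CCAAT-binding factor NF-Y. The RefSeq table (GRCm38.p6) held a promoter for 5 of the 7 genes (Hmgcs1, Insig1, Srebf2, Lss and Idi1). The letters TCACNCCAC, the core of a sterol regulatory element, were found on either strand in the 250 bases before the start of 1 of the 5, Hmgcs1, and in 1.05% of 32851 promoters. The letters CCAAT were found on either strand in 5 of the 5 and in 33.8% of all promoters. The Idi1 window lies inside the gene as the expression tables place it, since RefSeq puts the start further along. The windows of Hmgcs1 and Insig1 are printed because these genes carry the sterol element and the largest male liver change. The first is chr13:119690101-119690350 and the second chr5:28071162-28071362, which stops before the gene start of the expression tables, both GRCm38.p6, plus strand, with both motifs in capitals (CCAAT reads ATTGG on the other strand).
Hmgcs1 promoter: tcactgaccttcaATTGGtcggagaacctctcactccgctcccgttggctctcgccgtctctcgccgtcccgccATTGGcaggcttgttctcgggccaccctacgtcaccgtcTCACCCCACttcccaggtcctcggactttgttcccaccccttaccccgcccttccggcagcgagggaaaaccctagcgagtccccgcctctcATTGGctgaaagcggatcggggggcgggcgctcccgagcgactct
Insig1 promoter: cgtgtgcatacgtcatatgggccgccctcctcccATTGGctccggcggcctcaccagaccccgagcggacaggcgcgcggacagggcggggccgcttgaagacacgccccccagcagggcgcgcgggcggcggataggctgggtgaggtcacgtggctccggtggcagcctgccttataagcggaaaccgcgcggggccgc
The Hmgcs1 window holds the sterol element and 3 CCAAT matches, with no overlap between them, and the Insig1 window holds 1 CCAAT match. A match is a description of letters, and binding was not measured.

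Several libraries went against their labels or stood apart. Mettl3 itself was at 8.43 and 10.6 FPKM (fragments per transcript length and library size) in the male livers labelled WT and at 26.3 and 14.7 FPKM in those labelled cKO, and at 29.7 and 72.3 FPKM in the female libraries labelled WT and cKO. In hepatocytes it was at 3.44 and 2.91 FPKM. FPKM sums the whole gene, so loss of part of the transcript would not show in it, and groups are given here by label. The female library titled WT has a genotype tag that reads Mettl3 cKO, and it was grouped by its title. The 11 Kupffer cell and macrophage markers summed to 553 FPKM in the hepatocyte input labelled WT and to 12.6 FPKM in that labelled cKO, and the 15 hepatocyte markers to 14051 and 29929 FPKM. The hepatocyte IP lists had the reverse order, since 1 of the 11 Kupffer markers had a peak in the list labelled WT and 10 in that labelled cKO, while 15 and 5 of the 15 hepatocyte markers had one. Whether the inputs or the IPs of the hepatocytes were exchanged between genotypes was not tested. With the inputs exchanged the sign of every hepatocyte difference below would turn, and each peak would have been called against the other genotype's input. With the IPs exchanged the peaks listed under each label would belong to the other genotype, and would also have been called against an unmatched input. In male liver the hepatocyte markers summed to 31991 and 40830 FPKM (WT) and to 18549 and 22034 FPKM (cKO), and the 6 cholangiocyte markers to 56.0 and 18.1 against 232 and 160 FPKM. Much of the hepatocyte sum was albumin. The other 14 markers summed to 14394 and 15806 FPKM (WT) and to 12437 and 10274 FPKM (cKO). Of the 15, 12 had a log2 difference below 0. Most of the cholangiocyte sum was Spp1, at 53.8 and 16.3 FPKM (WT) and at 217.5 and 148 FPKM (cKO). Mitochondrial genes took 17.6% and 15.5% of FPKM in the male livers labelled WT and 28.0% and 21.9% in those labelled cKO. Albumin is listed at 0 in the female library labelled WT. Estimated fragments on genes were 1737352 and 3564824 in the hepatocyte inputs, 3261235 to 5875125 in male liver and 10419475 and 10909052 in female liver.

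In male liver, Insig1 was the member with the largest difference between genotypes and fell in cKO, 4 of the other 6 had lower values that did not pass the test beside the spread between livers, and Srebf2 and Lss were within 0.25 of 0 on the log2 scale. Male liver is the only tissue with replicates, and each test is from limma on log2(FPKM + 1) with Benjamini-Hochberg adjustment over 10937 genes. Of the 7 genes, 1 was called lower, against 1.5% of all genes tested, and 0 higher, against 3.68%. By unadjusted p under 0.05 in the same limma fit, 559 genes were lower and 2209 higher. The median log2 difference of the 7 genes was -0.48, and the median over all genes was 0.42. Relative to that median all 7 were lower.

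Srebf2 encodes the precursor of SREBP2 itself. It was at 5.90 and 8.44 FPKM in the male livers labelled WT and at 7.10 and 6.15 FPKM in those labelled cKO. The cKO values lay between the WT values. The log2 difference was -0.09 (SE 0.39, limma adjusted p = 0.916). By FPKM, a level per transcript length, it was the lowest of the 7 genes in 5 of the 8 libraries. Srebf2 was at 2.83 and 3.41 FPKM in the female livers labelled WT and cKO, and Idi1 was lower in that labelled cKO (0.441 FPKM). In the hepatocyte inputs labelled WT and cKO it was at 3.92 and 8.02 FPKM, and Idi1 was lower in that labelled WT (3.26 FPKM).

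Insig1 was at 58.9 and 55.9 FPKM in the male livers labelled WT and at 10.1 and 8.77 FPKM in those labelled cKO. The 4 livers fell into 2 tight pairs with a wide gap, with means of 57.4 ± 2.09 (SD, n = 2) and 9.42 ± 0.917 FPKM. The log2 difference was -2.49 (SE 0.34, limma adjusted p = 0.0163), or -2.91 relative to the median of all genes. The call was lost with no filter on low values (adjusted p = 0.0906) and when any 1 library was left out (limma adjusted p = 0.107 to 0.309 with 1 residual degree of freedom, log2 difference -2.58 to -2.40). The values rest on 126 to 762 fragments per library.

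Hmgcs1 encodes the cytosolic HMG-CoA synthase, which makes the substrate of HMG-CoA reductase. It was at 51.4 and 161 FPKM in WT and at 31.7 and 57.6 FPKM in cKO. The groups overlapped, and the WT pair alone spanned more than the gap between the group means. The log2 difference was -1.07 (SE 0.58, limma adjusted p = 0.299), and it was -0.26 without WT replicate 3 and -1.88 without WT replicate 2.

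Idi1 encodes isopentenyl diphosphate isomerase, which interconverts the building blocks of isoprenoids. It was at 43.0 and 40.9 FPKM in WT and at 7.76 and 26.4 FPKM in cKO. Both cKO livers were below both WT livers, but they differed more from each other than the WT livers did. The log2 difference was -1.47 (SE 0.55, limma adjusted p = 0.16), and it was -0.65 without cKO replicate 2 and -2.29 without cKO replicate 3.

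Fdft1 encodes squalene synthase, the first step committed to sterols. It was at 24.5 and 25.4 FPKM in WT and at 15.8 and 26.0 FPKM in cKO. Only cKO replicate 2 was low, and the groups overlapped. Between genotypes the log2 difference was -0.28 (SE 0.38, limma adjusted p = 0.686), and it was 0.06 without cKO replicate 2 and -0.62 without cKO replicate 3.

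Sqle encodes squalene epoxidase, a rate-limiting step after HMG-CoA reductase. It was at 24.0 and 17.4 FPKM in WT and at 13.6 and 15.3 FPKM in cKO. The cKO livers were below both WT livers by a small margin. On the log2 scale the difference was -0.48 (SE 0.37, limma adjusted p = 0.454), and it was -0.26 without WT replicate 2.

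Lss encodes lanosterol synthase, which closes the sterol rings. It was at 8.64 and 6.85 FPKM in WT and at 10.4 and 8.37 FPKM in cKO. The ranges overlapped. The log2 difference was 0.25 (SE 0.38, limma adjusted p = 0.725), and it was -0.22 when libraries were scaled by the median ratio of their genes. Leaving out 1 library gave 0.10 (without WT replicate 3) to 0.40 (without WT replicate 2), with 0.11 without cKO replicate 2 and 0.39 without cKO replicate 3. Over all genes that scaling moved the median from 0.42 to -0.03 and the calls from 164 lower and 403 higher to 291 lower and 162 higher, with Insig1 called lower in both.

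Both cKO livers were below both WT livers for 3 of the 7 genes (Sqle, Insig1 and Idi1), against 11.7% of all genes tested, and above both for 0 of the 7, against 44.8%. The lower values stood beside higher Kupffer and stellate markers (medians 1.36 and 1.16), a higher mitochondrial share and lower hepatocyte markers, whose median log2 difference over 15 genes was -0.70, and in bulk liver fewer hepatocytes and less mRNA per hepatocyte cannot be told apart. Insig1 lay far below that median, and Idi1 and Hmgcs1 below it by a smaller margin.

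**Figure D1:**
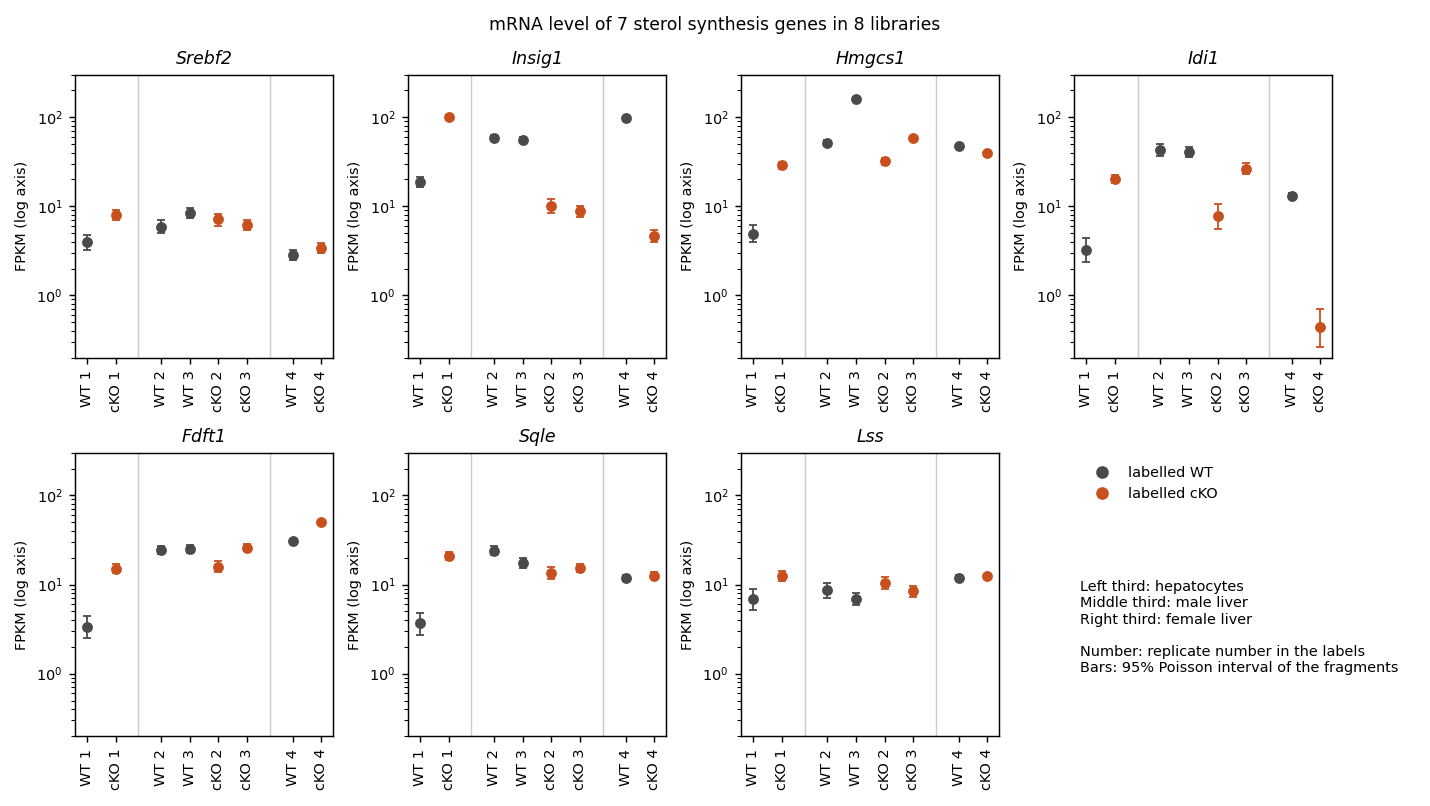
FPKM (log axis) of the 7 genes in each of the 8 libraries, with hepatocytes, male liver and female liver from left to right, labelled WT in grey and labelled cKO in orange, and bars for the 95% Poisson interval of the fragments. Insig1 in male liver sits at 58.9 and 55.9 FPKM in WT and 10.1 and 8.77 FPKM in cKO, and in hepatocytes each of the 7 genes is higher in the library labelled cKO.

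In female liver the lower values were limited to Insig1 and Idi1 by the 2-fold rule used for libraries without replicates. With 1 library per genotype there is no test. Of the 7 genes, 2 were at least 2-fold lower, against 11.3% of 11046 genes, and 0 were at least 2-fold higher, against 36.8%. Insig1 was at 98.0 FPKM (3982 fragments, 95% Poisson interval 3859 to 4108) in the library labelled WT and at 4.67 FPKM (169 fragments, 145 to 197) in that labelled cKO, a ratio of 21.0. Idi1 was at 13.1 FPKM (588 fragments, 541 to 638) and 0.441 FPKM (18 fragments, 10.7 to 28.4), a ratio of 29.7. These intervals cover counting error only, and both gaps lie far outside them. On the log2(FPKM + 1) scale, which understates the change of a low gene, the differences were -4.13 and -3.29.

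The other enzymes differed by less than 2-fold in female liver. Hmgcs1 was at 47.7 and 39.0 FPKM in WT and cKO, a log2 difference of -0.28 that was -0.98 with median-ratio scaling. Sqle was at 11.8 and 12.6 FPKM. Lss was at 11.8 and 12.4 FPKM. Fdft1 had the largest of these differences, at 31.0 FPKM in WT and 50.03 FPKM in cKO, a log2 difference of 0.68 where the median of all genes was 0.61. Relative to that median 6 of the 7 genes were lower. Of the 15 hepatocyte markers 9 were at least 2-fold lower in the female library labelled cKO, and the 14 without albumin, which is listed at 0 in WT, summed to 21716 FPKM in WT and 12833 FPKM in cKO. The part of cell composition in the result was not tested.

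When male and female liver were fitted together with the table as a block, 3 livers per genotype, the limma log2 difference was -3.03 for Insig1 (SE 0.39, adjusted p = 0.00379) and -2.08 for Idi1 (SE 0.54, adjusted p = 0.0322). All 3 cKO livers were below the WT livers of their own table for both genes. The share of all genes with that pattern was not counted, and for male liver alone it was 11.7%. In the joint fit 3.97% of 10009 genes were called lower and 15.3% higher. The other 5 members did not pass, with adjusted p from 0.266 to 0.984 in limma. In male liver alone Idi1 did not pass (log2 difference -1.47, limma adjusted p = 0.16). The female pair added to it holds 18 Idi1 fragments in cKO. Its library titled WT has the genotype tag that reads Mettl3 cKO and albumin listed at 0.

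In isolated hepatocytes all 7 genes were higher in the input labelled cKO, under the doubt on these libraries given above, 5 of them at least 2-fold on the log2(FPKM + 1) scale, against 23.6% of 9596 genes, and 0 at least 2-fold lower, against 13.2%. The median log2 difference of the members was 2.24, and that of all genes was 0.41. There is 1 library per genotype and no test.

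Insig1 was at 18.7 FPKM (266 fragments) in the hepatocyte input labelled WT and at 100 FPKM (1671 fragments) in that labelled cKO. Hmgcs1 was at 4.93 FPKM (85 fragments) and 28.7 FPKM (580 fragments). Idi1 was at 3.26 FPKM (46 fragments) and 20.4 FPKM (385 fragments). These 3 genes, a regulator and a pair of early enzymes, had nearly the same log2 difference, 2.36, 2.33 and 2.33. Sqle was at 3.67 and 21.1 FPKM, a log2 difference of 2.24. Fdft1 was at 3.36 and 15.1 FPKM, a log2 difference of 1.88. Srebf2, the regulator, differed less than the enzymes except Lss, with a log2 difference of 0.88. Lss was at 6.85 and 12.6 FPKM, a log2 difference of 0.79.

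The Lss value depends on how FPKM was built. Its scaled fragment count was 4.01-fold higher in the hepatocyte input labelled cKO and its FPKM 1.84-fold higher. In female liver the scaled count was 1.46-fold higher in cKO and the FPKM 1.06-fold higher. The scaled count behind 1 FPKM of Lss was 8.39 in one hepatocyte input and 18.33 in the other. In male liver it ran from 15.58 in WT replicate 2 to 28.48 in WT replicate 3. For Insig1, Hmgcs1, Srebf2 and Fdft1 the same ratio differed by at most 1.01 times within a table, and for Sqle by 1.05 times. For Idi1 it was 4.68 to 6.37 in male liver and 15.3 to 17.5 in hepatocytes, so 1 FPKM of Idi1 stood for fewer fragments in male liver. With the scaled counts in place of FPKM, chosen after seeing this, the male liver log2 difference of Idi1 was -1.33 (limma adjusted p = 0.0798) and that of Insig1 -2.53 (adjusted p = 0.00154).

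The higher values in hepatocytes stood beside the cell type markers of the same inputs. Of the 15 hepatocyte markers 13 were higher by 2-fold or more in cKO (median log2 difference 1.86), and 11 of 11 Kupffer and macrophage markers were at least 2-fold lower (median -4.65). The part of cell composition in the higher sterol genes was not tested.

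**Figure D2:**
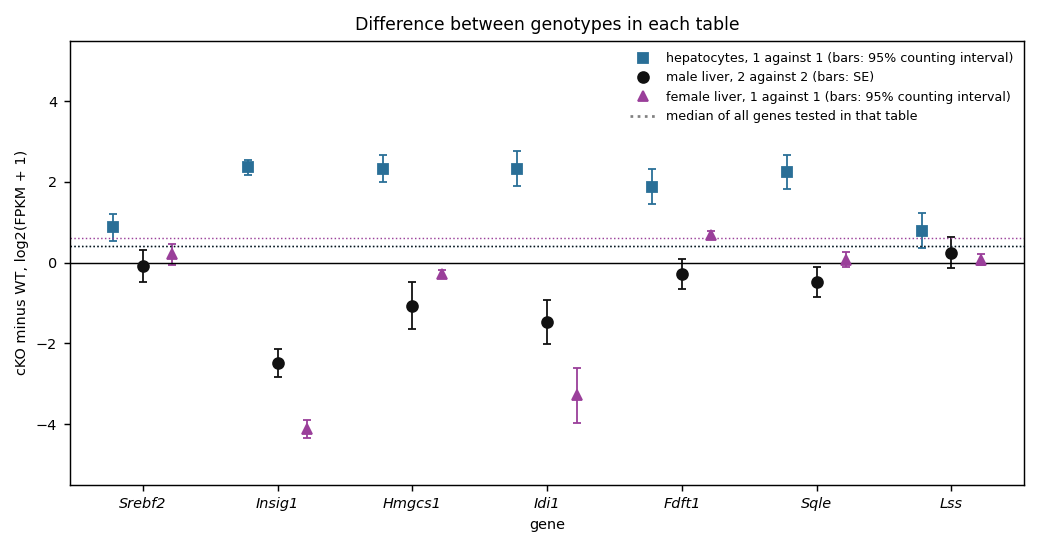
Difference between genotypes (cKO minus WT, log2(FPKM + 1)) for each gene in hepatocytes, male liver and female liver, with SE bars for male liver and 95% counting intervals for the others, and dotted lines at the median of all genes tested. Insig1 is at 2.36 in hepatocytes, -2.49 in male liver and -4.13 in female liver, while Srebf2 and Lss stay within 0.88 of 0 in each.

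The difference between the hepatocyte effect and the male liver effect was tested as a contrast in 1 limma fit over the 8 libraries. The spread came from the male livers alone, so the lone hepatocyte libraries were assumed to vary like them, and the p-values hold no spread between hepatocyte samples. Insig1 was the only member that passed, with a difference of 4.85 on the log2 scale (SE 0.60, adjusted p = 0.0129), where 7.1% of 9263 genes passed. At an unadjusted p under 0.05 in the same limma fit 5 of the 7 passed (all but Srebf2 and Lss), against 23.2% of genes. Sqle (2.72, adjusted p = 0.0556 in limma), Idi1 (3.80, adjusted p = 0.0663) and Hmgcs1 (3.40, adjusted p = 0.099) came near the threshold. Fdft1 (2.16), Srebf2 (0.96) and Lss (0.55) had adjusted p of 0.111, 0.477 and 0.694. With median-ratio scaling 3 members passed, and without WT replicate 2 or without WT replicate 3 of male liver 0 passed (Insig1 adjusted p = 0.218 and 0.208 in limma).

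The other genes of the pathway were counted from fixed lists. Of 16 other enzymes of sterol synthesis, 0 were called lower and 0 higher by limma in male liver (1.5% and 3.68% of all genes), but 15 of 16 had a value below 0 and their median log2 difference was -0.70 against 0.42 over all genes. Mvd (mevalonate diphosphate decarboxylase) and Sc5d (sterol C5-desaturase) had the largest differences of that list. Sc5d was at 193 and 366 FPKM in WT and at 75.8 and 118 FPKM in cKO (log2 difference -1.48, limma adjusted p = 0.0921). Mvd was at 4.15 and 3.18 FPKM in WT, and in cKO it is listed at 0 in replicate 2 and was at 1.5 FPKM in replicate 3 (limma adjusted p = 0.158). In hepatocytes 15 of the 16 enzymes were higher by 2-fold or more in cKO (median 1.45), where 23.6% of all genes were. In female liver 3 of 15 were at least 2-fold lower and 5 at least 2-fold higher, where 11.3% and 36.8% of all genes were.

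Of 12 other genes of SREBP regulation, 0 passed in male liver and their median was 0.21. Scap, the SREBP escort, was at 43.7 and 64.6 FPKM in WT and at 12.3 and 32.6 FPKM in cKO (limma adjusted p = 0.158). Both cKO livers were below both WT livers for Scap, without passing the test.

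Of 9 genes of LDL uptake and intracellular cholesterol, 0 passed in male liver, with a median of 0.21. Stard4, a sterol transport protein, was at 24.0 and 15.2 FPKM in WT and at 5.56 and 5.96 FPKM in cKO (log2 difference -1.57, limma adjusted p = 0.0685). Npc1, the lysosomal cholesterol exporter, was at 39.5 and 49.1 FPKM in WT and at 96.6 and 81.2 FPKM in cKO (0.99, limma adjusted p = 0.129). Of 10 genes of efflux, esterification and LXR, 0 passed, with a median of 0.39. Abcg1, a sterol efflux transporter, was at 2.33 and 2.67 FPKM in WT and at 5.70 and 9.55 FPKM in cKO (limma adjusted p = 0.131). Soat1, which esterifies cholesterol in many cell types, was at 0.467 and 0.894 FPKM in WT and at 1.75 and 4.28 FPKM in cKO (limma adjusted p = 0.219). In the hepatocyte inputs labelled WT and cKO Abcg1 was at 8.42 and 0.574 FPKM, and Soat1 at 3.59 and 0.132 FPKM. These 2 of the 10 were at least 2-fold lower there, and 4 at least 2-fold higher. Kupffer markers were also lower in that cKO input and higher in the male cKO livers. The part of cell composition in these values was not tested. For male liver, values above and below 0 were mixed in these lists, unlike among the enzymes.

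**Figure D3:**
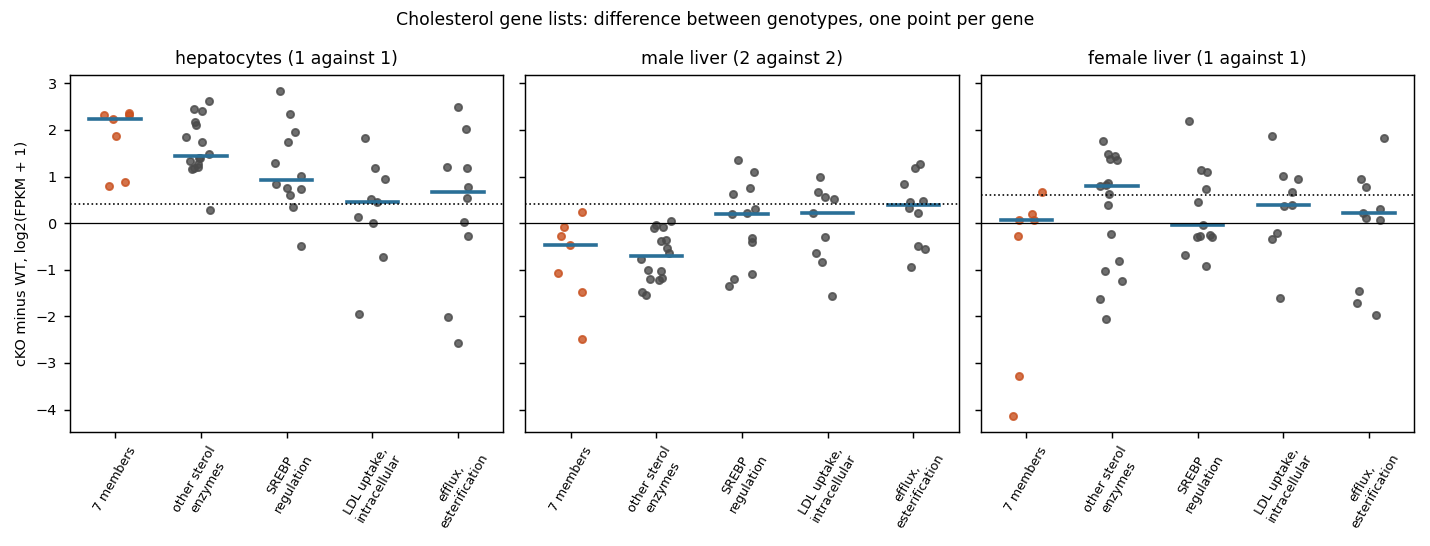
Difference between genotypes (cKO minus WT, log2(FPKM + 1)), 1 point per gene, for the 7 members and 4 further cholesterol lists in hepatocytes, male liver and female liver, with blue bars at list medians and a dotted line at the median of all genes. The other sterol enzymes have a median of 1.45 in hepatocytes and -0.70 in male liver.

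Across the 8 libraries the members varied together to different degrees. After centring each table on its own mean, Idi1 had the highest correlation with the mean of the 7 genes (Pearson r = 0.90), Insig1 and Hmgcs1 had r = 0.86, and Lss had the lowest, r = 0.36. The non-members most like that mean, among 3545 genes of at least 5 FPKM in each table, were Adipor2, Cideb, Faah and Nqo2 (r = 0.996 each) and Gbe1 (r = 0.994). These values are descriptions over 8 libraries that share their tables, depth and cell composition, and each member is part of the mean it was compared with.

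In the hepatocyte IP labelled WT all 7 genes had m6A peaks, 19 in all. In that labelled cKO 3 of the 7 had a peak, 4 in all, under the doubt on these libraries given above. The peaks were called by the authors in each library with MACS, which gives a fold enrichment of IP over input, a score and a false discovery rate in percent. Of genes of at least 1 FPKM in the matched input, 63.8% had a peak in WT and 64.5% in cKO. Both hepatocyte lists were of similar size, with 17175 and 17277 peaks. In the 4 male liver lists the members had 1 peak together, in Lss in cKO replicate 2 (fold 2.40, false discovery rate 100%), while 14.4% and 5.53% of genes had one in the WT lists and 7.79% and 5.37% in the cKO lists.

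Of the 19 WT peaks, 13 were centred in coding sequence and 6 in the 3′ UTR, with 0 in the 5′ UTR, by the GENCODE M21 transcript with the longest coding sequence. The last exon held 8 of the 19 centres. The peaks were trimmed to exons, and 8 covered a whole exon, so their edges are exon edges. Their median fold was 22.4, and that of all WT peaks was 28.5.

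Srebf2 had a coding peak in exon 8 of 19 (fold 22.4) and a peak in the 3′ UTR (fold 13.5). Insig1 had its strongest peak across the stop codon and into the 3′ UTR in exon 5 of 5 (fold 28.2), a second 3′ UTR peak (fold 15.95) and a coding peak in exon 2 (fold 7.35). Neither regulator had a peak in the cKO list.

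Hmgcs1 had the most peaks, 5, and the highest enrichment of the 7 genes. Its exon 3 peak reached a fold of 109 in WT, and peaks in exons 5, 6 and 10 had folds of 75.1, 73.8 and 12.6. A peak of 1476 bases in exon 11 ran from the last codons into the 3′ UTR (fold 10.1). The exon 3 peak was listed again in cKO with the same start and end but a fold of 4.28 and a false discovery rate of 21.7%.

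Idi1 had a 3′ UTR peak (fold 30.2) and a coding peak in exon 5 (fold 9.97) in WT. In cKO it had a peak in exon 2 (fold 4.32) that overlapped neither. Fdft1 had 4 WT peaks, with folds of 46.2 in exon 5, 25.9 in exon 8, 20.8 across the stop codon and 4.97 in exon 9. In cKO the peak across the stop codon was listed at a fold of 3.95, and a peak in exon 6 at 10.7 overlapped no WT peak. Sqle had its stronger WT peak at the end of the coding sequence in exon 11 (fold 58.2) and a peak of 33 bases in exon 2 (fold 3.86). Lss had 1 WT peak, in exon 3 of 22, with a fold of 101.

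**Figure D4:**
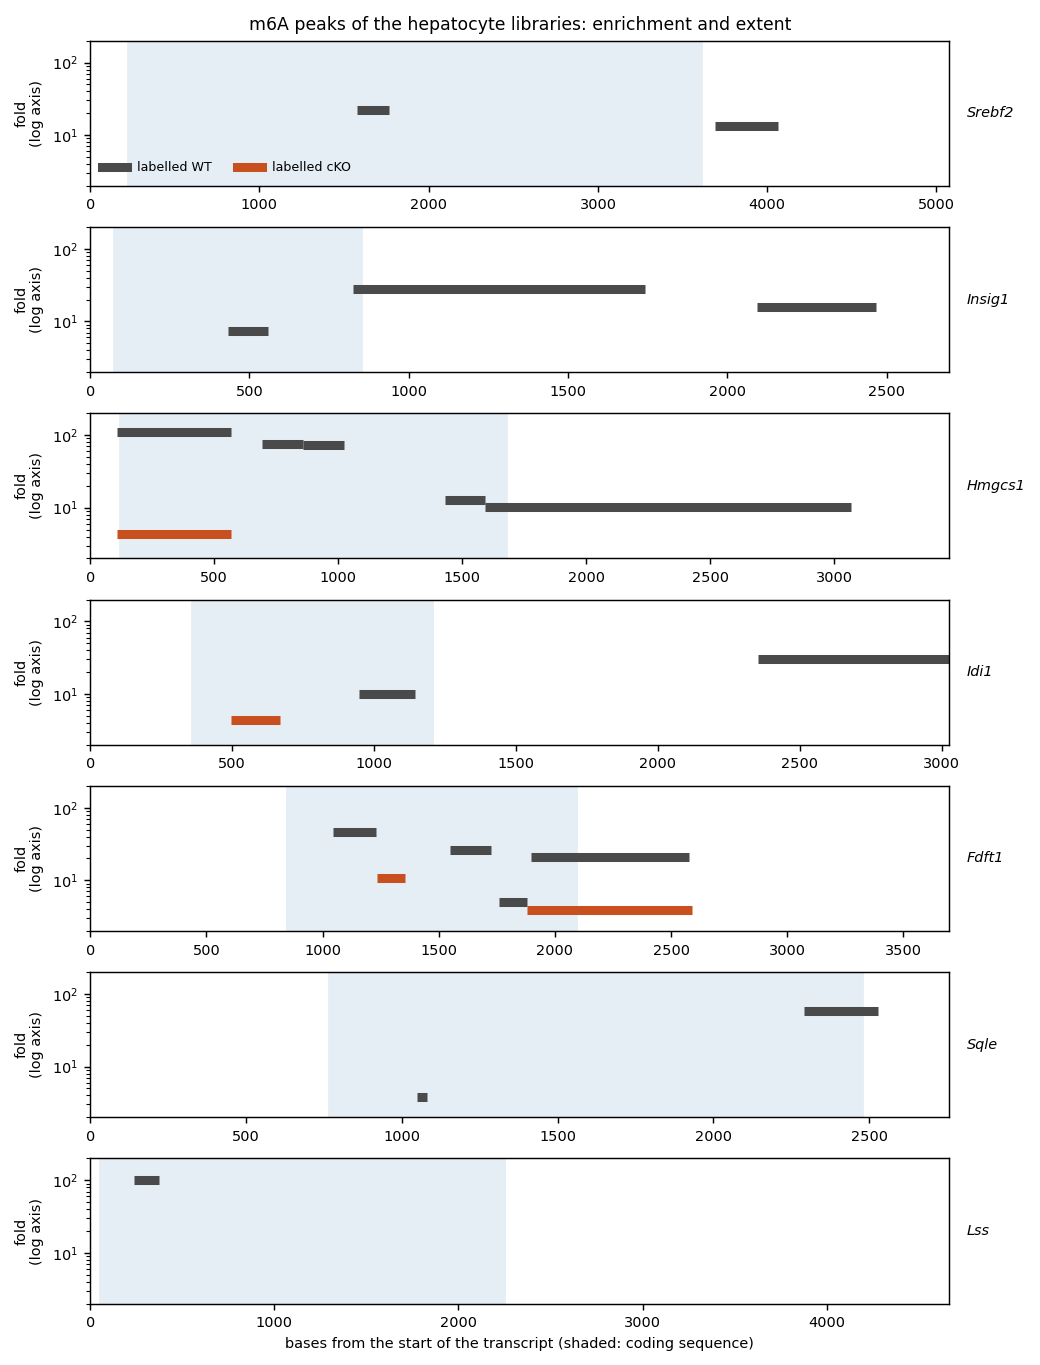
Extent of each hepatocyte m6A peak along the transcript (bases from its start, coding sequence shaded) against fold enrichment over input (log axis), labelled WT in grey and labelled cKO in orange. WT peaks of Hmgcs1 and Lss reach folds of 109 and 101, and the 4 cKO peaks lie between 3.95 and 10.7.

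Of the 19 WT peaks, 17 overlapped no cKO peak of the same gene, against 64.6% of all 17175 WT peaks. All 7 genes had fewer peaks in cKO than in WT, against 52.9% of 5609 genes with a WT peak and at least 1 FPKM in both inputs. The 4 genes without a cKO peak (Sqle, Insig1, Srebf2 and Lss) are to be read beside 24.7% of those genes. Among genes whose cKO input was at least 2-fold higher, as it was for 5 of the 7, that share was 37.7% of 1608. Of these 5 members only Sqle and Insig1 had no cKO peak. Among genes whose cKO input was at least 2-fold lower the share was 8.14% of 221. The enrichment is relative to inputs that held 46 to 266 fragments of each member in WT and 249 to 1671 in cKO, and the hepatocyte markers with a peak went in the same direction, from 15 genes in WT to 5 in cKO. The part of the input level and of cell composition in the lower number of peaks was not tested, and its direction rests on the labels of these libraries. Of the 16 other sterol enzymes, 13 had a peak in WT (35 peaks) and 5 in cKO (6 peaks).

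The reference sequence under the strongest coding peaks of 4 members, and 30 bases of the Insig1 3′ UTR peak, show the letters in which m6A could lie. GGAC, a core motif of m6A sites, is in capitals, read only on the strand that has the letters of the mRNA. The sequences are from GRCm38.p6 (RefSeq assembly). Hmgcs1 shows the middle of the exon 3 peak, chr13:119699798-119699997 (plus strand). Lss is the whole exon 3 peak, chr10:76533513-76533651 (plus strand). Fdft1 is the exon 5 peak, chr14:63163302-63163485 (minus strand), Srebf2 the exon 8 peak, chr15:82178717-82178909 (plus strand), and Insig1 lies at chr5:28077304-28077333 (plus strand).
Hmgcs1: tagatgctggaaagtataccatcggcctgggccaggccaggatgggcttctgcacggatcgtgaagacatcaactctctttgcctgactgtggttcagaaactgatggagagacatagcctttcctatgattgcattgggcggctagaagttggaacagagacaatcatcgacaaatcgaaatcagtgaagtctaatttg
Lss: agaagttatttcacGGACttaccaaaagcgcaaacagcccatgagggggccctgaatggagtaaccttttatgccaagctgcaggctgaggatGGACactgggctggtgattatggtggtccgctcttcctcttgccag
Fdft1: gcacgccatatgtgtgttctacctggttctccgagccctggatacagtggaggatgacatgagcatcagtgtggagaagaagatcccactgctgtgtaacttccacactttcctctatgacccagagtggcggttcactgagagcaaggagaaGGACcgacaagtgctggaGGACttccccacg
Srebf2: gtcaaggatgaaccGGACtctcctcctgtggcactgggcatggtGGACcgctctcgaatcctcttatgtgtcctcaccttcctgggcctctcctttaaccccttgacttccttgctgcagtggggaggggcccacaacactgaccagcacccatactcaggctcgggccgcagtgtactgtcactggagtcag
Insig1: tcatctcccagtaGGACctatagtgcagcc
GGAC occurs at 2 places in each of the Lss, Fdft1 and Srebf2 stretches. It occurs at 0 in the Hmgcs1 peak, although that peak had the highest fold. The broader motif DRACH (D is A, G or T, R is A or G, H is A, C or T) has 7 matches in the whole Hmgcs1 peak. The Lss, Fdft1 and Srebf2 peaks shown hold 4, 5 and 6. Over the 19 WT peaks, 11 hold GGAC. In the middle 101 bases of peaks of at least that length it was in 33.3% of 18 member peaks and in 42.6% of 13410 WT peaks. A match does not place a methylated base, since no single-base measurement was made.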

How the data were processed

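The members and gene lists were chosen with earlier results of these data known. The authors trimmed reads with cutadapt 1.9.3, aligned them to mm10 with HISAT2 2.0.4, and deposited FPKM made with Cufflinks and Cuffdiff, whose versions the sources used here do not give. The deposited count columns are a signal, which the authors multiplied by a factor of its own for each library. The smallest step gave each factor, and 91.0% to 94.6% of low values were whole multiples within 0.02 steps. The deposited peak lists hold, per the authors' MACS, a fold (ratio of IP over input), a score and a false discovery rate in percent, for exonic peaks.

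Male liver was tested with limma 3.58.1 (R 4.3.3, variance trend, two-sided) on log2(FPKM + 1), for genes averaging 1 FPKM or more, with Benjamini-Hochberg adjustment and a threshold of 0.05. Nothing says more of the replicates than separate samples, so p-values measure the spread between these samples. Tests stayed within tables, which were normalized separately, and fits over several tables form each contrast inside its own. The fit was tested on simulated data. Peaks were placed on GENCODE M21 with Python 3.11.15, pandas 2.3.3 and pysam 0.24.0, and 1 shared base counted as overlap. Named genes were all 7 members, those of each further list past the threshold or among its 2 largest male liver differences, the 5 non-members most correlated with the member mean, and the strongest peak of each member. A gene that this rule names is not reported here. Msmo1 and Adgre1 were matched under Sc4mol and Emr1, and Fcn3 had no match. The alternatives were the pseudocount, the filter, median-ratio scaling, each library left out, the replicate block, no variance trend, the joint liver fit, scaled counts (chosen after seeing the data), and stricter peaks.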

Additional observations from a re-analysis of the deposited data

Results flagged for a closer look

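Insig1 stood out because its difference between genotypes had opposite signs in hepatocytes and male liver, and the difference of 4.85 on the log2 scale passed the limma test (adjusted p = 0.0129). It was lower in both male cKO livers and higher in the single cKO hepatocyte input. That test takes its spread from the male livers alone, and without WT replicate 2 or WT replicate 3 the limma adjusted p was 0.218 or 0.208. The sign in hepatocytes rests on the labels of the inputs, and would turn if they were exchanged, which was not tested.

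Insig1, Idi1 and Hmgcs1 also had opposite signs in hepatocytes and female liver, each beyond its counting interval. The female log2 differences were -4.13, -3.29 and -0.28, (-0.98 for Hmgcs1 with median-ratio scaling), and those in hepatocytes 2.36, 2.33 and 2.33. This difference was not tested, since both tables have 1 library per genotype.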

How the results depend on the processing

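Leaving out each male liver library in turn gave 0 to 2 genes called lower and 0 to 0 called higher, 0 to 0 members called lower, a member median of -0.62 to -0.26, Insig1 at -2.58 to -2.40, Srebf2 at -0.31 to 0.14 (0.14 without WT replicate 3, 0.00514 without cKO replicate 3), Fdft1 at -0.62 to 0.0576 (without cKO replicate 3 and 2), and 0 to 2 members whose hepatocyte and male liver effects differed. With no filter 9 genes were called lower, 2 higher and 0 members. With median-ratio scaling the calls were 291 and 162, the member median -0.97, Lss -0.22 and the members with differing effects 3, and in female liver Sqle, Srebf2, Lss and Fdft1 reversed to -0.58, -0.33, -0.58 and -0.0179, and Hmgcs1 moved to -0.98. With no variance trend 265 genes were called higher. With scaled counts 330 were called lower and 1142 higher. The joint liver fit gave 397 lower, 1527 higher, 2 members lower, Srebf2 at 0.0117 and Fdft1 at 0.0373. A peak score of at least 100 left 17 WT, 1 cKO and 0 male liver peaks in members. A false discovery rate of at most 5% left 18, 0 and 0. How many of all listed peaks pass these settings was not counted, so these counts cannot be read as a trait of the members.

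With the replicate number as a block, 286 genes were called lower and 788 higher, and Insig1 stayed called (limma adjusted p = 0.00664). The labels do not pair the livers, and the deviations of same-numbered livers correlated at 0.126 over only 2 pairs. The cause of these shifts was not tested. Depth limits Idi1 most, at 18 fragments in the female cKO library and 41 in male cKO replicate 2.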
